A study of Mus musculus with 42 samples.

Results

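The insulin-like growth factor (IGF) axis was described here through 10 genes, namely the ligands Igf1 and Igf2, the growth hormone receptor gene Ghr, the acid-labile subunit gene Igfals, and the binding protein genes Igfbp1 to Igfbp6. They were chosen by name, as every probe that is not a control and carries one of these gene names on the array, which gave 21 of 41174 probes and 10 of 27597 gene names. Microarrays were hybridised with RNA from female C57BL/6 mice, either wild-type or Akt1+/-, aged 8 or 35 weeks, and the tissues were liver, skeletal muscle and visceral fat. Each tissue was measured on 14 arrays, 3 for each genotype of the younger mice and 4 for each genotype of the older mice. The Akt1+/- mice lack 1 copy of Akt1 in every cell, the wild-type mice were their littermates, and no agent was given to any group. The labels name the older age as 35 weeks and the methods of the study name a different age, so that the label was kept. No label says which arrays of the 3 tissues came from the same mouse, or that replicates of a group came from separate mice, in which case p-values measure only the spread between these samples.

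Growth hormone acts on the liver through its receptor, Jak2 and Stat5, which switch on Igf1 and Igfals. IGF in the blood is carried by a binding protein, mainly IGFBP-3, with the acid-labile subunit as the third partner, and tissues also make IGF and binding proteins for local use. Igf1 and Igf2 signal through the receptor Igf1r to Akt kinases, and insulin lowers Igfbp1 in the liver through Akt and FoxO factors, so that the gene deleted in these mice lies downstream of the ligands and upstream of 1 of their binding proteins.

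The 10 genes had 17 start sites among the 32851 mouse promoters of RefSeq (GRCm38.p6), each given as 250 bases before and 50 after the start. Because some of these genes respond to insulin or to growth hormone, 3 motifs were searched on both strands of these promoters. They were the core of the insulin response element, CAAAACA, the FoxO motif GTAAACA and the Stat5 motif TTCNNNGAA. The insulin response core was found in 6.28% of all promoters and, among the 10 genes, in that of Igfbp1. The FoxO motif was found in 3.65% of all promoters and the Stat5 motif in 8.30%, and Igfals was the only one of the 10 genes with either. These are matches of letters, not measured binding sites. The 150 bases before the start of Igfbp1 (chr11:7197637-7197786, plus strand), and those before the start of Igfals with the Stat5 motif nearest to it (chr17:24878081-24878230, plus strand), are shown because these are the only stretches of this length before a start of the 10 genes that hold one of the motifs. Capitals mark the insulin response core and the Stat5 motif.
Igfbp1: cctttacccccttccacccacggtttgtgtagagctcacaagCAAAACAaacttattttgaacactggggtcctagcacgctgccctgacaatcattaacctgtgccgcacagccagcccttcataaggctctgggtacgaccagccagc
Igfals: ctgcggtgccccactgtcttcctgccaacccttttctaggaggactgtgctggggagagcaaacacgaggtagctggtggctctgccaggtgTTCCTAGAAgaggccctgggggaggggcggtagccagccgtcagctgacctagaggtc
In Igfbp1 the core starts at position −108 from the gene start. In Igfals the Stat5 motif starts at position −58 in the stretch shown, 1 more starts at position −236 of another start, and the FoxO motif lies on the minus strand at position −242 of the start shown.

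Values are log2 intensities relative to the 75th percentile of each array, so that 0 is the level of the probe at that percentile. Where the values of single arrays are listed, they follow the replicate numbers, with wild-type before Akt1+/-. A probe was called well above background where the scanner software flagged it so. Between 56.5 and 68.6% of probes passed on each array. Akt1, the deleted gene, was lower in Akt1+/- mice by −0.67 in liver (SE 0.08, adjusted p = 0.0025, limma), by −0.58 in muscle (SE 0.11, adjusted p = 0.0744, limma) and by −0.55 in fat (SE 0.07, adjusted p = 0.0065, limma), averaged over both ages. The 5 hepatocyte markers on the array were well above background on all liver arrays, the 6 muscle fibre markers on all muscle arrays and the 6 adipocyte markers on all fat arrays. No scan day held both ages of a tissue, so that age and scan day cannot be told apart. At 35 weeks in every tissue, and at 8 weeks in liver, the genotypes lay on different slides, so that genotype and slide cannot be told apart there. In fat at 35 weeks each genotype also had its own scan day, so that genotype and scan day cannot be told apart either. In tissue RNA, fewer cells of a type and less RNA per cell cannot be told apart either.

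The 3 tissues held the members of the axis at different levels. By its brightest probe, every member but Igfbp1 was well above background on at least 13 of 14 arrays of each tissue. Liver was the highest of the 3 for Igf1, Igfals, Igfbp1, Igfbp2 and Igfbp4, fat for Ghr, Igfbp3 and Igfbp6, and muscle for Igf2, while Igfbp5 was close to equal in muscle and fat. In limma over all 42 arrays, all 10 genes passed the test between liver and muscle, where 85.8% of 19862 genes did, all 10 passed between liver and fat, where 86.2% did, and 7 between muscle and fat, where 87.6% did. Most genes of the array thus differed between tissues too, and the size and direction of each member's difference are given below in place of a count.

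**Figure D1:**
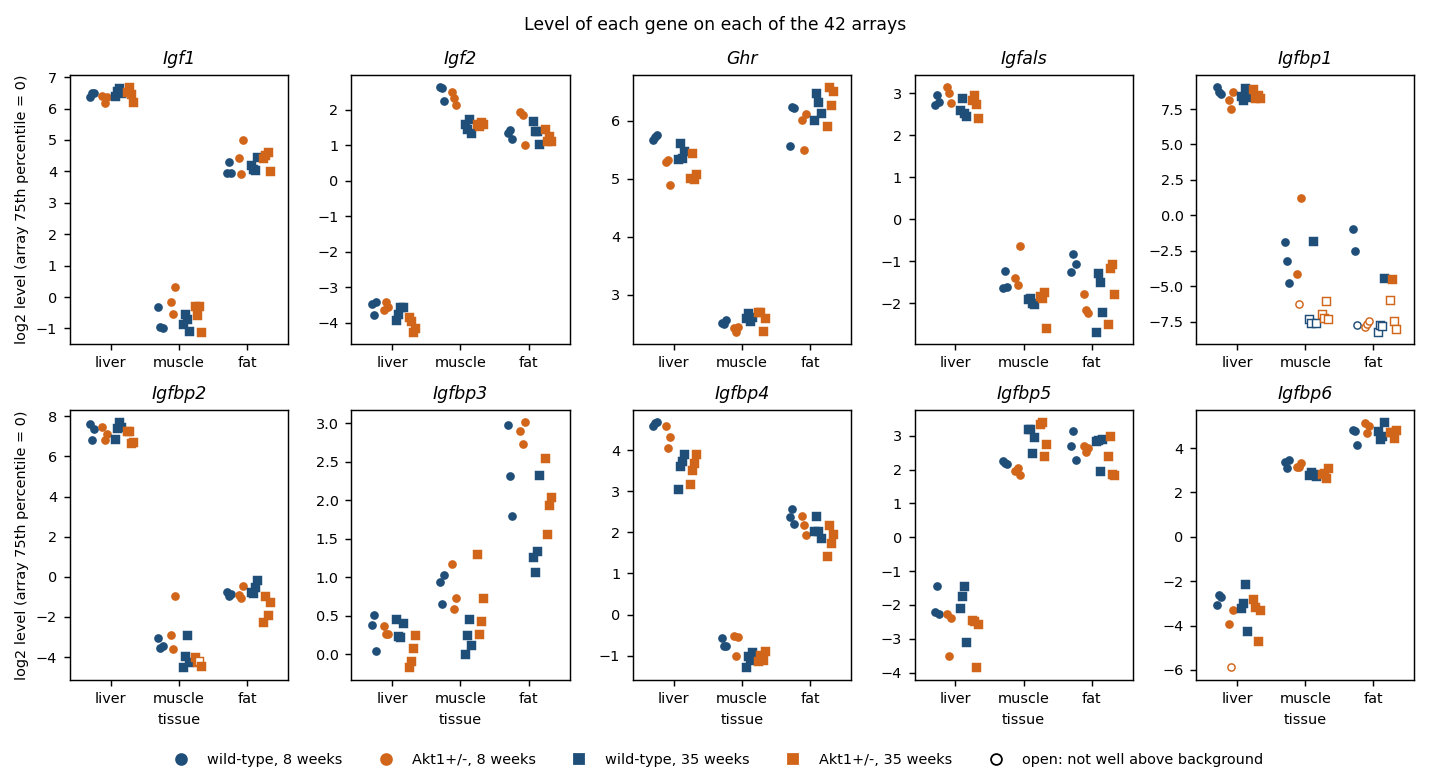
Log2 level of each of the 10 genes (vertical axes, array 75th percentile = 0) on each of the 42 arrays, by tissue (horizontal axes), genotype (colour) and age (shape), with open symbols for arrays on which the probe was not well above background. One probe per gene is drawn in all 3 tissues. Igf1, Igfals, Igfbp1, Igfbp2 and Igfbp4 lie highest in liver on every array, Igf2 and Igfbp6 lie far lower in liver than in the other tissues, and Igfbp1 is mostly open in muscle and fat.

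The ligands were separated by tissue. Igf1, the main growth factor under growth hormone control (probe at chr10:87360570-87360629, mm8, plus strand), had a level from 6.19 to 6.69 on the liver arrays (median 6.48), from 3.91 to 5.01 in fat (median 4.26) and from −1.10 to 0.32 in muscle (median −0.56). The ranges of the 3 tissues did not overlap. Liver exceeded fat by 2.17 (SE 0.11, adjusted p = 3.52e-19, limma) and fat exceeded muscle, with a muscle minus fat difference of −4.83 (SE 0.11, adjusted p = 4.76e-29, limma). Igf2, a growth factor of fetal life that muscle cells make as they differentiate (probe at chr7:142460185-142460245, minus strand), ran from −4.25 to −3.41 in liver (median −3.69), from 0.99 to 1.93 in fat (median 1.37) and from 1.34 to 2.64 in muscle (median 1.69). Liver lay below both other tissues on every array, with a liver minus muscle difference of −5.69 (SE 0.08, adjusted p = 1.54e-34, limma), whereas the muscle and fat ranges overlapped and differed by 0.61 (SE 0.08, adjusted p = 4.15e-08, limma). A second Igf2 probe was not well above background on any of the 14 liver arrays, and by it Igf2 was at least 31.5-fold to at least 46.2-fold higher in muscle than in liver, depending on the group.

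Ghr encodes the receptor through which growth hormone reaches these tissues and had 5 probes. With the probe at chr15:3277988-3278047 (mm8, minus strand), the level ran from 5.49 to 6.59 in fat (median 6.18), from 4.89 to 5.76 in liver (median 5.35) and from 2.37 to 2.70 in muscle (median 2.55). Fat had the highest mean by every one of the 5 probes, liver was second and muscle lowest. The gap between liver and muscle depended on the probe, since the probe at chr15:3268107-3268166, for the same RefSeq transcript, had means of 4.70 in liver and 4.18 in muscle, against 5.36 and 2.54 for the first. Igfals, which encodes the acid-labile subunit (probe at chr17:24608906-24608965, plus strand), ran from 2.41 to 3.15 in liver and stayed below −0.65 in muscle and below −0.82 in fat. Liver exceeded each of the other tissues by 4.46 (SE 0.14, limma, adjusted p = 5.27e-25 against muscle and 7.59e-25 against fat), and muscle and fat did not differ beyond their spread (difference 0.00, 95% interval −0.28 to 0.29).

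Among the binding proteins, Igfbp1, the form that insulin lowers within hours in the liver (probe at chr11:7102442-7102501, plus strand), had levels from 7.53 to 9.07 in liver. It was well above background on 6 of 14 muscle arrays and 4 of 14 fat arrays. In the Akt1+/- groups without any array above background, liver was at least 11400-fold higher than muscle at 35 weeks and at least 14230-fold higher than fat at 8 weeks. Igfbp2, a form made in quantity by the liver (probe at chr1:72785310-72785369, plus strand), ran from 6.69 to 7.69 in liver, from −2.28 to −0.16 in fat and from −4.51 to −0.95 in muscle. Liver stood clear of both others, with a liver minus fat difference of 8.15 (SE 0.20, adjusted p = 3.65e-28, limma), and the fat and muscle ranges overlapped through 1 muscle array described below.

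Igfbp3, the main carrier of IGF in blood (probe at chr11:7106594-7106653, minus strand), ran from −0.17 to 0.51 in liver (median 0.26), from 0.01 to 1.31 in muscle (median 0.62) and from 1.07 to 3.01 in fat (median 2.18). Fat was the highest, with a muscle minus fat difference of −1.54 (SE 0.13, adjusted p = 3.63e-13, limma). Liver and muscle overlapped widely, and their difference of −0.41 (SE 0.13, adjusted p = 0.0037, limma) became 0.10 (adjusted p = 0.410) with the mean of all 3 Igfbp3 probes and −0.22 (adjusted p = 0.289) with the wild-type arrays alone, within a range of adjusted p from 0.0020 to 0.410 over the 14 alternatives. Igfbp4, which mostly restrains IGF until a protease cuts it (probe at chr11:98868110-98868169, plus strand), was ordered liver (3.06 to 4.68), fat (1.43 to 2.57) and muscle (−1.29 to −0.52), with no overlap. Igfbp5, a matrix-bound form known from muscle and bone (probe at chr1:72791462-72791521, minus strand), ran from 1.84 to 3.39 in muscle, from 1.83 to 3.13 in fat and from −3.84 to −1.45 in liver. Muscle and fat could not be ordered (difference −0.04, 95% interval −0.41 to 0.33). Igfbp6, a form that binds Igf2 by preference (probe at chr15:101977366-101977426, plus strand), ran from 4.14 to 5.16 in fat, from 2.64 to 3.44 in muscle and from −5.88 to −2.14 in liver, again with no overlap. The genes of Igfbp1 and Igfbp3, and those of Igfbp2 and Igfbp5, are neighbours on opposite strands, with 4092 bases between the probes of the first pair and 6092 between those of the second. In the second pair Igfbp2 was highest and Igfbp5 lowest in liver, while in the first Igfbp1 was highest in liver and the lowest tissue for Igfbp3 depended on the probe, liver by 1 and muscle by 2.

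The first question of the design is whether loss of 1 copy of Akt1 changed these genes. Averaged over both ages, the test was passed by 1 of the 10 genes in liver (6.26% of 17561 genes), by 0 of 10 in muscle (0.00% of 17139 genes) and by 0 of 9 in fat (0.822% of 18366 genes), where Igfbp1 was too dim to be tested. The gene was Ghr, lower in Akt1+/- livers. At an unadjusted p below 0.05, limma had 3 of the 10 genes in liver (Ghr, Igfbp5 and Igfbp6, all lower), 2 in muscle and 2 in fat. The methods' two-way test, adjusted here over all genes, also gave 0 of the 10 in muscle and 0 of the 9 in fat. The study's methods name a threshold of p below 0.01 for that test, which was not the one applied here. The median difference of the 10 genes was −0.21 in liver, beside 0.02 for all genes.

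Ghr was lower in the liver of Akt1+/- mice. The wild-type livers had 5.67, 5.72 and 5.76 at 8 weeks and 5.34, 5.62, 5.36 and 5.47 at 35 weeks. The Akt1+/- livers had 5.29, 5.33 and 4.89 at 8 weeks and 5.01, 5.45, 4.99 and 5.09 at 35 weeks. All 3 Akt1+/- livers lay below all wild-type livers at 8 weeks, and at 35 weeks 3 of 4 did while replicate 2 lay among the wild-type values. The difference over both ages was −0.43 (SE 0.10, 95% interval −0.64 to −0.22, adjusted p = 0.0275, limma). It was −0.55 at 8 weeks (adjusted p = 0.0672) and −0.31 at 35 weeks (adjusted p = 0.222). Of the other probes for the same transcript, one gave −0.54 (adjusted p = 0.0502) and one −0.38 (adjusted p = 0.0851).

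The Ghr call in liver rested on the setting, with the adjusted p between 0.0074 and 0.148 over 22 alternatives and the difference between −0.56 and −0.22. It was lost with normexp and quantile normalization (adjusted p = 0.119), without the filter on dim probes (0.060), with the mean of all 5 probes (0.148), with a random block for slides (0.0633), and without wild-type replicate 2 (0.0675) or 3 (0.0501) at 8 weeks, wild-type replicate 2 (0.0585) or 4 (0.0528) at 35 weeks, or Akt1+/- replicate 1 at 35 weeks (0.0542).

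In muscle, Ghr was read through the probe at chr15:3268107-3268166, the brightest one there. The wild-type muscles had 4.26, 4.34 and 4.25 and the Akt1+/- muscles 3.91, 3.98 and 3.68 at 8 weeks, and the values at 35 weeks were 4.48, 4.49, 4.12 and 4.32 against 4.37, 4.36, 3.86 and 4.09. The genotypes were apart at 8 weeks and overlapped at 35 weeks. Compared by replicate number, whose arrays deviated together at 35 weeks, Ghr was lower in Akt1+/- mice in 4 of 4 pairs in muscle and in 4 of 4 in liver, and with a replicate block the adjusted p at this age was 0.307 in muscle and 0.171 in liver (limma). The difference over both ages was −0.31 (SE 0.10, adjusted p = 0.157, limma), and the liver minus muscle difference of the genotype effect, −0.23 with a 95% interval of −0.80 to 0.33, did not pass the test (adjusted p = 0.735, both tissues read through this probe). On the 1 muscle slide with both genotypes the difference was −0.37. The first Ghr probe gave −0.07 in muscle (adjusted p = 0.565). In fat the Ghr difference was −0.02 (95% interval −0.36 to 0.31).

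The ligands differed less between the genotypes. Igf1 in liver differed by −0.10 (95% interval −0.27 to 0.07). In muscle Igf1 was 0.43 higher in Akt1+/- mice (95% interval 0.05 to 0.82, adjusted p = 0.234, limma) and in fat 0.29 (95% interval −0.06 to 0.63), neither of which passed the test. Igf2 differed by −0.17 in liver (95% interval −0.37 to 0.04), by −0.05 in muscle (95% interval −0.24 to 0.14) and by 0.07 in fat (95% interval −0.26 to 0.40). Igfals differed by 0.13 in liver (95% interval −0.10 to 0.36) and by 0.12 in muscle (95% interval −0.24 to 0.47).

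In fat at 8 weeks, Igfals was −1.27, −0.82 and −1.07 on the wild-type arrays and −1.79, −2.17 and −2.24 on the Akt1+/- arrays. All Akt1+/- arrays lay below all wild-type arrays, as the groups of 27.1% of genes also did not overlap in this comparison of 3 against 3 arrays. The difference was −1.01 (SE 0.39, adjusted p = 0.149, limma), and −0.99 between the 1 wild-type and the 3 Akt1+/- arrays of the slide with both genotypes. Alb, the albumin gene of liver cells, was lower in the same arrays, with 3.0, 2.0 and 0.44 in wild-type against −1.34, −1.76 and −0.61 in Akt1+/- fat (difference −3.05, adjusted p = 0.0385, limma). The summed level of the 5 hepatocyte markers measured ran from 0.90 to 3.14 in the first and from −0.31 to 0.16 in the second. Of the 3 tested, 1 was lower. Above background on all arrays of the group were 2 of the 5 in wild-type and 3 in Akt1+/- fat. Above background on no array were 1 in wild-type and 2 in Akt1+/- fat, so that these counts did not all go with the sum. Their part in the Igfals values was not tested.

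In fat at 35 weeks, Igfbp2 was −0.76, −0.81, −0.53 and −0.16 in wild-type against −2.28, −0.93, −1.88 and −1.27 in Akt1+/- mice. The 2 groups did not overlap, as for 9.87% of genes. The difference was −1.02 (SE 0.26, adjusted p = 0.0809, limma), with an adjusted p from 0.0307 to 0.260 over 22 alternatives. It passed without Akt1+/- replicate 2 (0.0307) and with a random block for slides (0.0484). Btg4, an oocyte gene, was well above background on all 4 wild-type and on none of the Akt1+/- arrays of this age (difference −3.22, adjusted p = 6.9e-05, limma). Of the 6 oocyte markers, 2 were well above background on all wild-type arrays and 1 on all Akt1+/- arrays of this age. Their summed level ran from −1.60 to −1.04 in wild-type and from −1.73 to −1.22 in Akt1+/- fat. The summed level of 7 markers of ovarian granulosa and steroid-forming cells went the other way, from −1.42 to −0.87 and from −1.09 to −0.42. The part of these markers in the Igfbp2 values was not tested.

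Igfbp1, the member with the insulin response core in its promoter, had no difference between the genotypes that passed the test. At 8 weeks its level was 9.07, 8.70 and 8.53 in the wild-type livers against 8.11, 7.53 and 8.71 in the Akt1+/- livers. At 35 weeks it was 8.42, 8.11, 9.0 and 8.35 against 8.91, 8.26, 8.52 and 8.28. The groups overlapped at both ages. The difference was −0.65 at 8 weeks (95% interval −1.29 to −0.01, adjusted p = 0.235, limma), 0.02 at 35 weeks (95% interval −0.54 to 0.58) and −0.31 over both (95% interval −0.74 to 0.11). Igfbp2 in liver differed by −0.25 (95% interval −0.63 to 0.13) and Igfbp4 by −0.16 (95% interval −0.48 to 0.16).

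Igfbp3 went by probe. In liver at 35 weeks the brightest probe was 0.47, 0.24, 0.23 and 0.41 in wild-type against −0.17, −0.09, 0.09 and 0.25 in Akt1+/- mice, a difference of −0.32 (adjusted p = 0.195, limma) with overlap through 1 array. The dimmer probe at chr11:7108469-7109478, named on the array for an older messenger RNA entry, gave 0.71 in the other direction (SE 0.13, adjusted p = 0.0116, limma over all probes). The third probe, for a full-length cDNA entry, gave −0.44 (adjusted p = 0.515). In fat Igfbp3 was 0.52 higher in Akt1+/- mice over both ages (95% interval 0.01 to 1.02, adjusted p = 0.251, limma). At 8 weeks it was 0.51 over all arrays (adjusted p = 0.387), and 1.08 on the slide with both genotypes, which held 3 Akt1+/- arrays and 1 wild-type array, the lowest of its group.

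Igfbp5 and Igfbp6 in liver were low and variable, and moved with a marker of the surface lining of organs. At 8 weeks Igfbp6 was −3.06, −2.61 and −2.70 in the wild-type livers, all above the −3.95, −5.88 and −3.32 of the Akt1+/- livers. At 35 weeks the wild-type values of −3.22, −2.99, −2.14 and −4.27 overlapped with the Akt1+/- values of −2.81, −3.18, −4.71 and −3.31. Over both ages it differed by −0.97 (SE 0.44, adjusted p = 0.178, limma) and Igfbp5 by −0.75 (SE 0.32, adjusted p = 0.158, limma). Over the 14 liver arrays, Igfbp6 had a Pearson correlation of 0.97 and Igfbp5 of 0.92 with Msln, a gene of mesothelial cells (Spearman 0.94 and 0.84), all points sharing 1 scaling per array. Msln itself differed by −0.97 between the genotypes (adjusted p = 0.256). Of the 5 mesothelial markers, 4 were tested in liver and 0 passed for genotype. Their summed log2 level ran from −0.61 to −0.03 in wild-type and from −1.92 to −0.62 in Akt1+/- livers at 8 weeks, and from −1.44 to 0.44 and −1.85 to −0.20 at 35 weeks. The part of this marker in the Igfbp5 and Igfbp6 values was not tested.

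**Figure D2:**
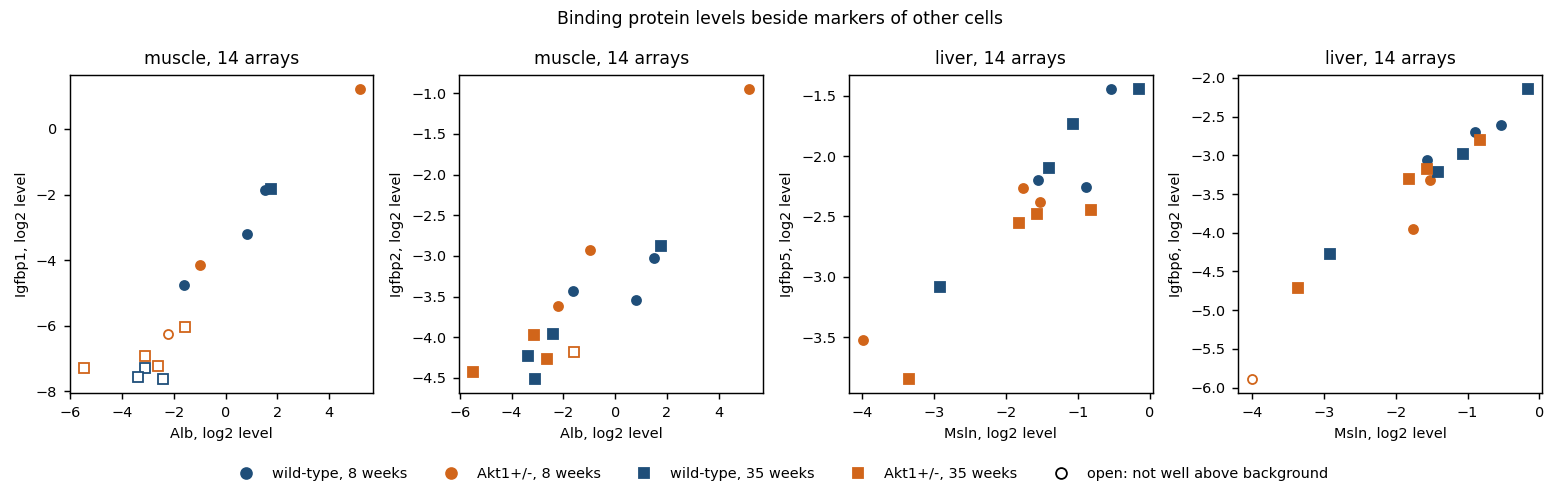
Log2 level of Igfbp1 and Igfbp2 against Alb in muscle, and of Igfbp5 and Igfbp6 against Msln in liver, 1 point per array, 14 arrays in each panel, coloured by genotype, shaped by age and open where the binding protein probe was not well above background. The muscle array with the highest Alb, 5.18, also has the highest Igfbp1 and Igfbp2, and the 3 liver arrays with the lowest Msln have the lowest Igfbp5 and Igfbp6.

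At single ages, 0 of the 10 genes passed for genotype in liver at 8 weeks (2.12% of all genes) or at 35 weeks (3.55%), with 3 and 3 at an unadjusted p below 0.05. In muscle 0 passed at 8 weeks (0.00%) and at 35 weeks (0.0992%), with 2 and 1 unadjusted. In fat 0 of 9 passed at 8 weeks (1.83%) and at 35 weeks (1.72%), with 1 and 1 unadjusted. An ordinary 2-group test on the arrays of a single age also gave 0 in each after adjustment. The genotypes did not overlap at 8 weeks for 3 genes in liver (Ghr, Igfbp5 and Igfbp6, 25.2% of all genes) and for 2 in muscle (Ghr and Igfbp5, 22.4%), shares near those of all genes. The interaction of genotype and age was passed by 0 genes in liver (0.564%), muscle (0.00%) and fat (1.64%), with 0, 0 and 2 unadjusted, the last being Igfals (1.29, adjusted p = 0.194) and Igfbp2 (−1.07, adjusted p = 0.165) in fat. The difference of the genotype effect between tissues was passed by 0 of the 10 genes for liver minus muscle (0.896%), liver minus fat (4.27%) and muscle minus fat (0.730%), with 2, 3 and 0 unadjusted in limma.

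The second question is how the axis changed with age. From 8 to 35 weeks, averaged over the genotypes, 6 of the 10 genes passed the test in muscle (31.4% of all genes), 2 of 10 in liver (35.1%) and 1 of 9 in fat (19.3%). In muscle 5 of these fell (Igf2, Igfals, Igfbp2, Igfbp4 and Igfbp6) and Igfbp5 rose. In liver Igf2 and Igfbp4 fell, and in fat Igfbp3 did. The median difference of the 10 genes in muscle was −0.41, beside 0.006 for all genes. In muscle 3 genes had no overlap between the ages (Igf2, Igfals and Igfbp5), as did 10% of all genes, and in liver 1 (Igfbp4), as did 7.86%.

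**Figure D3:**
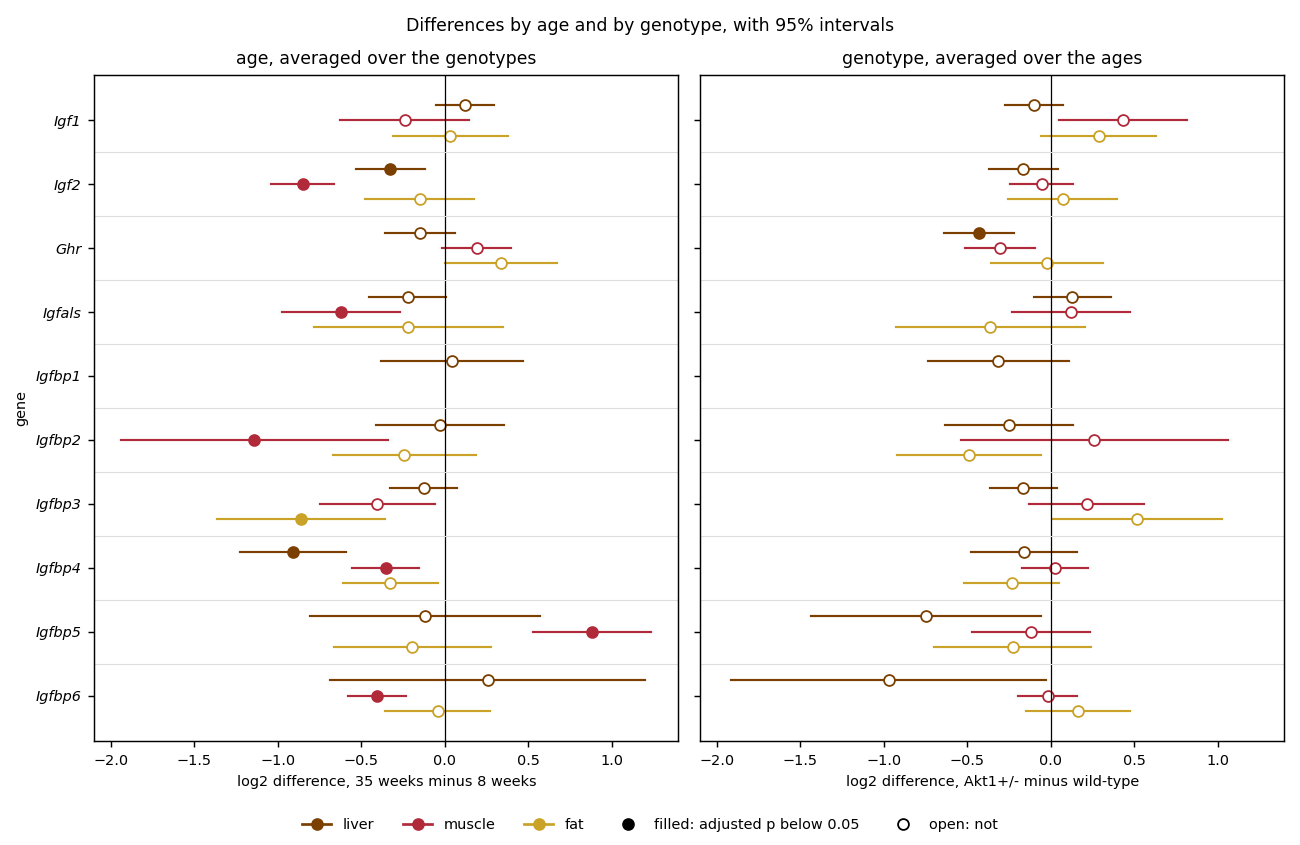
Log2 difference of each gene between the ages (left panel, 35 minus 8 weeks) and between the genotypes (right panel, Akt1+/- minus wild-type) in liver, muscle and fat, with 95% intervals as lines and filled symbols where the adjusted p is below 0.05. Igfbp1 in muscle (−3.30 for age) is left out for its wide interval and was not tested in fat. Of the 9 filled age differences, 8 lie below 0 and Igfbp5 in muscle lies above, and the only filled genotype difference is Ghr in liver.

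Igf2 fell in muscle. Its level at 8 weeks was 2.64, 2.61 and 2.25 in wild-type against 2.51, 2.34 and 2.14 in Akt1+/- mice, and at 35 weeks 1.59, 1.45, 1.73 and 1.34 against 1.58, 1.54, 1.66 and 1.60. Every array at 8 weeks lay above every array at 35 weeks in both genotypes. The difference was −0.85 (SE 0.09, adjusted p = 4.15e-05, limma), and −0.73 with the second probe (adjusted p = 0.00012). In liver, where Igf2 was low, it fell by 0.33 (SE 0.10, adjusted p = 0.0192, limma), and in fat it differed by −0.15 (95% interval −0.48 to 0.18). The fall in muscle exceeded that in liver by 0.52 (adjusted p = 0.0254) and that in fat (muscle minus fat −0.70, adjusted p = 0.0038). The first of these was lost with median scaling (0.37, adjusted p = 0.0921) and with a random block for slides (adjusted p = 0.0578), within a range of 0.0064 to 0.0921 over 6 alternatives, and the second passed under all 6. Igf1 passed the test in none of the 3 tissues, with differences of 0.12 in liver (95% interval −0.05 to 0.29), −0.24 in muscle (95% interval −0.63 to 0.15) and 0.03 in fat (95% interval −0.31 to 0.38).

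Igfbp5 in muscle moved the other way. It had 2.24, 2.20 and 2.17 in wild-type against 1.97, 2.05 and 1.84 in Akt1+/- mice at 8 weeks, and 3.19, 3.18, 2.49 and 2.95 against 3.34, 3.39, 2.39 and 2.74 at 35 weeks. The ages did not overlap. The difference was 0.88 (SE 0.16, adjusted p = 0.0018, limma), and 1.01 with the second probe (adjusted p = 0.0034). In liver it was −0.12 (95% interval −0.81 to 0.57) and in fat −0.19 (95% interval −0.67 to 0.28), and the muscle minus fat difference of the age effects, 1.07, passed the test (adjusted p = 0.0395). It did not without the filter (adjusted p = 0.0540), with the mean of probes (0.82, adjusted p = 0.107) or with a random block for slides (adjusted p = 0.0844), within a range of 0.0046 to 0.107 over 6 alternatives.

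Igfbp6 in muscle had 3.35, 3.1 and 3.44 in wild-type against 3.17, 3.17 and 3.32 in Akt1+/- mice at 8 weeks, and 2.79, 2.93, 2.85 and 2.75 against 2.85, 2.89, 2.64 and 3.12 at 35 weeks. The ages were apart within each genotype and touched across them. The difference was −0.41 (SE 0.08, adjusted p = 0.0027, limma). These differences of Igf2, Igfbp5 and Igfbp6 passed under all 22 alternatives, with the adjusted p at most 0.0143. Collagen genes of fibroblasts fell over the same interval. Col3a1 in muscle fell by 2.21 (adjusted p = 4.01e-06, limma) and Col1a1 by 2.41 (adjusted p = 2.36e-06, limma). Of the 5 tested markers of stellate cells and fibroblasts, 3 were lower and 1 higher. The summed level of all 6 listed ran from 8.32 to 8.51 at 8 weeks and from 8.21 to 8.42 at 35 weeks. Intensities were summed before taking the log2, so that the brightest markers set this level and a fall of dimmer ones hardly shows. Over the 14 muscle arrays Col3a1 had a Pearson correlation of 0.92 with Igf2 and −0.86 with Igfbp5, and within groups 0.50 and −0.32, and its part in these values was not tested.

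**Figure D4:**
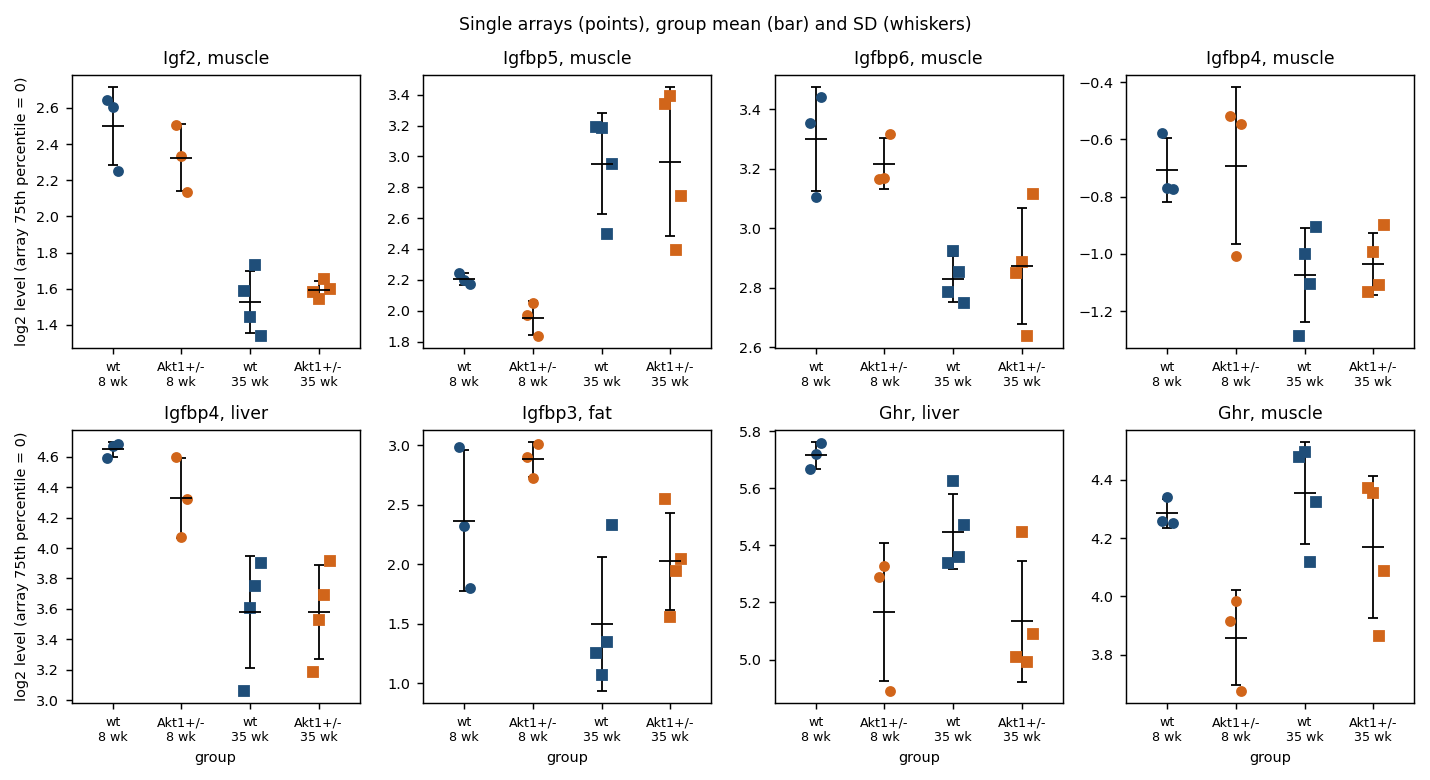
Log2 level (vertical axes, array 75th percentile = 0) on single arrays in the 4 groups of a tissue (horizontal axes, wt for wild-type), with group means as bars and SD as whiskers, 3 arrays per group at 8 weeks and 4 at 35 weeks. Igf2 and Igfbp5 in muscle and Igfbp4 in liver separate the ages without overlap, and Ghr separates the genotypes at 8 weeks in both liver and muscle, each read through its own brightest probe.

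Igfbp4 fell in liver and in muscle. In liver it had 4.59, 4.67 and 4.68 in wild-type against 4.59, 4.07 and 4.32 in Akt1+/- mice at 8 weeks, and 3.06, 3.61, 3.75 and 3.90 against 3.19, 3.53, 3.69 and 3.92 at 35 weeks. All 8-week livers lay above all 35-week livers. The difference was −0.91 (SE 0.15, adjusted p = 0.00064, limma). A second probe for the same transcript, at chr11:98864367-98864426, gave −0.14 (adjusted p = 0.380), and the mean of both probes −0.52 (adjusted p = 0.0079). Col3a1 fell by 1.44 in liver too (adjusted p = 4.58e-06), with 2 of the 6 tested markers of stellate cells and fibroblasts lower and 1 higher, and correlated with Igfbp4 over the 14 arrays (Pearson 0.83) but hardly within groups (−0.07), and its part was not tested.

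In muscle Igfbp4 had −0.58, −0.77 and −0.77 in wild-type against −0.52, −1.01 and −0.55 in Akt1+/- mice at 8 weeks, and −1.29, −1.0, −1.10 and −0.91 against −1.13, −0.99, −1.11 and −0.90 at 35 weeks. The ages overlapped through 1 Akt1+/- array of 8 weeks. The difference was −0.35 (SE 0.09, adjusted p = 0.0118, limma), with 0.07 by the second probe (adjusted p = 0.618) and −0.14 by the mean of both (adjusted p = 0.267). The fall in liver exceeded that in muscle (−0.55, adjusted p = 0.0330) and that in fat (−0.58, adjusted p = 0.0269), and with the mean of both probes neither difference passed (adjusted p = 0.144 and 0.302), nor with a random block for slides (0.0659 and 0.0596), nor the second with normexp and quantile normalization (0.0537).

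Igfbp3 fell in fat. It had 2.98, 2.32 and 1.80 in wild-type against 2.90, 2.73 and 3.01 in Akt1+/- mice at 8 weeks, and 1.26, 1.07, 1.35 and 2.33 against 2.55, 1.56, 1.95 and 2.04 at 35 weeks. The Akt1+/- arrays of the 2 ages were apart and the wild-type arrays overlapped. The difference was −0.86 (SE 0.23, adjusted p = 0.0231, limma), −1.16 by the dimmer probe (adjusted p = 0.00038) and −0.61 by the third (adjusted p = 0.0961). It was lost without wild-type replicate 1 (adjusted p = 0.0520) or Akt1+/- replicate 1 (0.0507) of 8 weeks, within a range of 0.0071 to 0.0520 over 21 alternatives. In liver Igfbp3 differed by −0.13 (95% interval −0.33 to 0.08), and by 0.32 through the dimmer probe (adjusted p = 0.0225), and in muscle by −0.40 (95% interval −0.75 to −0.06, adjusted p = 0.0717), and the age effects of liver and fat differed by 0.74 (adjusted p = 0.0440), which was lost with median scaling (adjusted p = 0.0963), without the filter (0.0608) and with a random block for slides (0.0808), within a range of 0.00085 to 0.0963 over 6 alternatives. Col3a1 fell by 1.61 in fat too (adjusted p = 3.44e-05, limma), with 2 of the 5 tested markers of stellate cells and fibroblasts lower and 0 higher. The summed level of all 6 listed, set by the brightest, ran from 8.52 to 8.96 at 8 weeks and from 8.25 to 8.71 at 35 weeks. Col3a1 had a Pearson correlation of 0.69 with Igfbp3 over the 14 arrays and 0.20 within groups, and its part was not tested. Over the 14 fat arrays Igfbp3 had a Pearson correlation of −0.79 with Adipoq, an adipocyte marker. Adipoq differed by 0.10 between the ages (adjusted p = 0.409), 0 of 6 adipocyte markers passed, and their summed level ran from 10.3 to 10.7 at 8 weeks and from 10.1 to 10.7 at 35 weeks.

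Igfbp1 and Igfbp2 in muscle moved together with Alb, and Igfals did so less closely. Igfals had −1.64, −1.25 and −1.63 in wild-type against −1.40, −1.58 and −0.65 in Akt1+/- muscles at 8 weeks, and −1.90, −1.87, −2.0 and −2.03 against −1.83, −1.89, −1.73 and −2.59 at 35 weeks, with no overlap of the ages. It fell by 0.62 (SE 0.16, adjusted p = 0.0129, limma). Igfals was highest, at −0.65, on the muscle array with the highest Alb. On the array with the next highest Alb, wild-type replicate 3 of 35 weeks, it was −2.0, among the other values of its age. Igfbp2 had −3.03, −3.54 and −3.43 against −2.92, −3.61 and −0.95 at 8 weeks, and −4.51, −3.97, −2.88 and −4.23 against −3.98, −4.26, −4.19 and −4.43 at 35 weeks. The highest value of each age stood alone, at Akt1+/- replicate 3 of 8 weeks and wild-type replicate 3 of 35 weeks. The difference was −1.14 (SE 0.37, adjusted p = 0.0332, limma).

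Igfbp1 in muscle had −1.87, −3.21 and −4.75 in wild-type against −4.16, −6.25 and 1.22 in Akt1+/- mice at 8 weeks, and −7.28, −7.61, −1.82 and −7.56 against −6.91, −7.23, −6.03 and −7.30 at 35 weeks. It was well above background on 5 of 6 arrays at 8 weeks and on 1 of 8 at 35 weeks, with the highest values on the same 2 arrays. Its difference of −3.30 (SE 1.18, adjusted p = 0.0513, limma) rests in part on arrays at background. Alb was 1.51, 0.81 and −1.62 against −0.99, −2.21 and 5.18 in muscle at 8 weeks, and −3.10, −2.41, 1.76 and −3.38 against −3.12, −2.63, −1.59 and −5.49 at 35 weeks. Over the 14 muscle arrays it had a Pearson correlation of 0.96 with Igfbp1, 0.90 with Igfbp2 and 0.80 with Igfals (Spearman 0.91, 0.87 and 0.66). Alb differed by −2.94 between the ages (adjusted p = 0.0838, limma). The hepatocyte markers Apoa1 (0.97) and Cps1 (−1.20) were also highest on Akt1+/- replicate 3 of 8 weeks. Apoa1 was next highest on wild-type replicate 3 of 35 weeks (−2.36), as Alb was. Cps1 was next highest on Akt1+/- replicate 1 of 35 weeks (−3.18), where Igfbp1 was −6.91 and not well above background. The summed level of the 5 hepatocyte markers measured ran from −0.89 to 1.73 in wild-type and −1.09 to 5.30 in Akt1+/- muscles at 8 weeks, and from −1.47 to 1.97 and −1.09 to −0.57 at 35 weeks, and in the last group 2 of the 5 were above background on no array.

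Without the 2 muscle arrays of the highest Alb, no 35-week muscle array was well above background for Igfbp1, and no value is given for it. Of the other members 5 passed for age, where 4334 genes did in all against 5378 with every array, and Igfbp4 did not with −0.31 (adjusted p = 0.0509). The Igfbp2 call was lost without wild-type replicate 1 (adjusted p = 0.0749), 2 (0.0520) or 3 (0.0554) of 8 weeks, without wild-type replicate 1 (0.0604), 2 (0.0539) or 4 (0.0583) or Akt1+/- replicate 2 (0.0527) or 4 (0.0564) of 35 weeks, with normexp and quantile normalization (0.113), without the filter (0.0573) and by the methods' two-way test (0.0572), within a range of 0.0026 to 0.113 over 22 alternatives. The age effect on Igfbp2 differed between liver and muscle by 1.11 (adjusted p = 0.0448, limma). Of 6 alternatives, this passed under 1, the authors' values, which nearly repeat the values used here. The adjusted p was 0.0756 with median scaling, 0.220 with normexp and quantile normalization (0.46), 0.0522 without the filter, 0.0505 with the mean of probes and 0.0768 with a random block for slides.

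In each pair of tissues, the age effect differed for 3 of the 10 genes between liver and muscle (18.8% of all genes), for 2 between liver and fat (16.2%) and for 2 between muscle and fat (16.4%), with the values given above. In the 3 tissues Ghr differed with age by −0.15 (95% interval −0.36 to 0.06) in liver, where the probe used for muscle gave −0.45 (adjusted p = 0.0262), 0.19 (95% interval −0.02 to 0.40) in muscle and 0.34 (95% interval 0.00 to 0.67, adjusted p = 0.143, limma) in fat. Of the remaining members, Igfals in liver differed by −0.22 (95% interval −0.45 to 0.01), Igfbp1 in liver by 0.04 (95% interval −0.38 to 0.47) and Igfbp2 in liver by −0.03 (95% interval −0.41 to 0.35).

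The partners of the axis were counted from lists of genes by role, in limma fits over all genes. The shares of all genes that passed for age, against which their counts are to be read, were 35.1% in liver, 31.4% in muscle and 19.3% in fat. Of the IGF and insulin receptors, 4 of 5 were tested in each tissue, and 0 passed for genotype in any. With age 1 of 4 fell in each tissue, a count near the share of all genes, namely Igf1r, the receptor of both ligands, in liver (−0.40, adjusted p = 0.0349) and Igf2r, which takes up Igf2 for breakdown, in muscle (−0.33, adjusted p = 0.0050) and fat (−0.39, adjusted p = 0.0271). Of the 9 genes of growth hormone receptor signalling, 1 fell in Akt1+/- livers, Ptpn2, a phosphatase acting on Jak kinases (−0.24, adjusted p = 0.0484), with 0 in muscle and fat. With age 3 of the 9 fell in liver, near the share of all genes there, which were Jak2 (−0.36, adjusted p = 0.0119), Stat5a (−0.45, adjusted p = 0.0127) and Stat5b (−0.31, adjusted p = 0.0193). Jak2 also fell in muscle (−0.35, adjusted p = 0.0293) and fat (−0.40, adjusted p = 0.0019), and Ptpn1, another phosphatase, rose in muscle (0.30, adjusted p = 0.0103).

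Of 12 proteases that cut binding proteins and their inhibitors, 9 were tested in liver, 10 in muscle and 11 in fat. For genotype 1 passed, Stc1, an inhibitor of the protease Pappa, higher in Akt1+/- livers (0.94, adjusted p = 0.0186). With age in liver 3 fell, among them the gelatinase Mmp2 (−1.29, adjusted p = 0.00018) and the lysosomal protease Ctsd (−0.43, adjusted p = 0.00042), and 2 rose, among them Klk1 (0.70, adjusted p = 0.0021). In muscle 2 fell, Mmp2 (−0.88, adjusted p = 0.00015) and Htra3 (−0.55, adjusted p = 0.0036), and Klk1 rose (0.52, adjusted p = 0.0332). In fat Klk1 fell (−0.39, adjusted p = 0.0113) and Pcsk6 rose (0.54, adjusted p = 0.0129). The age effect on Klk1 differed between liver and fat by 1.08 (adjusted p = 0.00023) and between muscle and fat by 0.91 (adjusted p = 0.0018).

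Of 9 other genes for proteins with an IGFBP domain or that bind Igf2 messenger RNA, 6 were tested in liver and fat and 7 in muscle. Esm1, an endothelial proteoglycan, was higher in Akt1+/- fat over both ages (1.03, adjusted p = 0.0399), and Igfbp7, a low-affinity relative of the 6 binding proteins, was lower in Akt1+/- fat at 35 weeks (−0.37, adjusted p = 0.0286). With age Esm1 rose in liver (1.47, adjusted p = 0.0161), and Crim1 (0.44, adjusted p = 0.0090) and Htra4 (0.64, adjusted p = 0.0251) rose in fat. Igf2bp2, which binds Igf2 messenger RNA, fell in muscle with age (−0.60, adjusted p = 0.0027), where Igf2 fell too.

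In the tissue where each member was highest, the genes most like it were found by Pearson correlation over the 14 arrays, which share age, genotype and slide. Igf2 in muscle was most like Actc1, the cardiac actin gene of immature muscle (r = 0.97), Cpz (0.96) and the collagen gene Col26a1 (0.96). Igfbp5 in muscle was most like Synrg (0.97), and next, after an unnamed transcript, Hlf, a clock-controlled transcription factor (0.95). Igfbp6 in fat was most like Upk3b, a mesothelial gene (0.95), Nkain4 (0.89) and Egfl6 (0.88). Igfbp3 in fat was most like Abca4 (0.93) and Wnt2b (0.92). The best match was weaker for Igfals (Ect2, 0.86), Igfbp1 (R3hcc1, 0.87) and Igfbp2 (Ccdc15, 0.85), all in liver.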

How the data were processed

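RNA of 42 samples was hybridised to one-colour Agilent arrays. The deposited scanner files hold processed signal intensity after background subtraction by Agilent Feature Extraction (version 9.1 per the labels, another version per the file headers). The authors also deposited log2 values scaled to the 75th percentile. Intensities at that percentile ran from 274.2 to 795.2, and 0 spots were saturated. Precision is limited by how many arrays there are. Here log2 intensity minus the 75th percentile was used, with spots averaged per probe and the brightest probe kept per gene and fit. Of 41174 probes, 24360 were named through RefSeq accessions and 2426 through older symbols. Probe coordinates are those of the files (mm8).

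limma 3.58.1 (R 4.3.3) was fitted per tissue to 4 group means over genes that passed the background flag on 3 or more arrays of a group, and over all 42 arrays for differences between tissues, with Benjamini-Hochberg adjustment over all genes tested and a threshold of 0.05. Scripts were tested on simulated data. Genes named are the 10 members, up to 3 called genes per partner list, tissue and comparison, and, for some members, genes among the 3 most like them, those for Igfbp4 not being reported here. Members and lists were chosen with earlier results of these data known. Muscle without the 2 arrays of highest Alb, and every probe fitted on its own, were alternatives added after seeing the data. The alternatives were normexp (offset 50) with quantile normalization, median scaling, the authors' values, no filter, the mean of probes, the methods' two-way test, a replicate block, slides as random blocks, wild-type arrays alone, and each array left out. At single ages an ordinary 2-group test took the place of the two-way test. The authors' values were scaled to the same percentile and had a correlation of 1.00 with those used here on every array. They thus nearly repeat the main values and are no independent check. For a gene with a single kept probe, the mean of probes is that probe. Between the genotypes, arrays of the same number correlated in their deviations from the group means by 0.11 to 0.53 at 35 weeks (4 pairs in each tissue) and by −0.19 to 0.07 at 8 weeks (3 pairs). At 35 weeks the replicate number was also the position on the slide in every group.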

Additional observations from a re-analysis of the deposited data

Results flagged for a closer look

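In 4 of 60 groups of 4 arrays, 1 array stood apart from the other 3 by Dixon's criterion at the 95% level, and chance alone gives about 1 in 20. Igfbp1 was −1.82 on the highest wild-type muscle array of 35 weeks, the next being −7.28, and −4.43 on the highest wild-type fat array of that age, the next being −7.75, where the remaining arrays of both groups were not well above background. Igfbp5 was −3.84 on the lowest Akt1+/- liver array of 35 weeks, the next being −2.55, and 1.97 on the lowest wild-type fat array of that age, the next being 2.85.

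Differences of the age effect (35 minus 8 weeks) between tissues passed the test for 5 genes in limma over all arrays. For Igf2 it was 0.52 between liver and muscle (adjusted p = 0.0254) and −0.70 between muscle and fat (adjusted p = 0.0038). For Igfbp2 it was 1.11 between liver and muscle (adjusted p = 0.0448), and for Igfbp3 0.74 between liver and fat (adjusted p = 0.0440). For Igfbp4 it was −0.55 between liver and muscle (adjusted p = 0.0330) and −0.58 between liver and fat (adjusted p = 0.0269). For Igfbp5 it was 1.07 between muscle and fat (adjusted p = 0.0395). With slides as random blocks the Igf2 difference between muscle and fat alone of these 7 passed.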

How the results depend on the processing

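Of 3991 values of the members under alternatives, 3918 kept their side of the threshold, and 168 of these changed sign while uncalled under both settings. A call was lost in 43 and gained in 29, and 1 reversed, Igfbp3 between liver and muscle, at 0.10 with the mean of all probes. The causes were not tested. The number of members passing for genotype in liver fell from 1 to 0 with normexp and quantile normalization, with no filter, with the mean of probes and with slides as random blocks, and was 0 to 1 when single arrays were left out. Median scaling gave 5 for age in liver, 1 and 3 for genotype in liver at 8 and 35 weeks, and 2 for the liver minus fat genotype effect, where all genes rose from 6158 to 8230, from 373 to 628, from 623 to 1188 and from 849 to 1659. For the age effect, liver minus fat had 1 with normexp, median scaling, no filter and the mean of probes and 0 with slides, liver minus muscle 1 with the mean of probes and 0 with slides, and muscle minus fat 1 with no filter, the mean of probes and slides. For genotype in fat at 35 weeks slides gave 1 and single arrays left out 0 to 1, and for age in fat 0 to 1.

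With a replicate block no member's call changed, Ghr in liver having an adjusted p of 0.0372. The block leaves no estimate of age within a tissue. It lowered the genes passing for genotype in fat from 151 to 1, and the interaction from 302 to 58 in fat and from 99 to 11 in liver.

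Over all genes, alternatives other than leaving out an array moved the genotype counts from 1099 to 245 and 3130 in liver (373 to 0 and 628 at 8 weeks, 623 to 198 and 1188 at 35 weeks), from 0 to 73 in muscle (0 to 255 and 17 to 0 and 96), and from 151 to 1 and 242 in fat (336 to 0 and 983, 315 to 145 and 419). Leaving out single arrays gave 269 to 1276, 0 to 33 and 28 to 491 over both ages in liver, muscle and fat, 23 to 526, 0 to 250 and 3 to 1001 at 8 weeks, and 207 to 744, 0 to 83 and 167 to 391 at 35 weeks. Differences of the genotype effect moved from 849 to 428 and 1659 (liver minus fat), 178 to 9 and 255 (liver minus muscle) and 145 to 20 and 326 (muscle minus fat), and of the age effect from 3219 to 5434 (liver minus fat) and 3264 to 2110 (muscle minus fat). Median scaling shifted the median of all genes by −0.13 for genotype and −0.20 for age in liver, and the share of higher calls from 59.6 to 15.7% and from 57.1 to 24.4%. Dim members, such as Igfbp1 in muscle and fat, are limited by background.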
